A study of Mus musculus with 10 samples.

Results

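RAB proteins are small GTPases that mark the membranes of the cell and direct vesicles between them, and 59 RAB genes were compared here between anaplastic and papillary mouse thyroid carcinomas. The members are the probe sets with a single platform gene symbol made of "Rab", a number and at most 1 letter. This gave 62 probe sets for 59 of the 19938 genes of the table, and where a gene had several, the brightest on average was used. The rule reads names alone. The names bind the genes by family, so genes of RAB regulators and effectors are not among the 59 and are described as partners at the end.

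Total RNA of 5 anaplastic thyroid carcinomas (ATC) and 5 papillary thyroid carcinomas (PTC) was hybridised to Affymetrix whole-transcript arrays, 1 array per tumour. The ATC came from mice labelled TPOCreER; BrafV600E; p53 -/-, and the PTC from mice labelled TPOCreER; BrafV600E, all of the mixed C57BL/6;129SvJae strain. TPOCreER is a tamoxifen-inducible Cre recombinase under the thyroid peroxidase promoter, so the Braf allele is switched on in thyroid follicular cells in both groups, and tumour type and p53 genotype differ together. The labels give no age and call the tumours biological replicates without naming the animals, so the p-values measure only the spread between these samples, which may be technical. Levels are given as log2 intensity of the probe set. A difference is the ATC mean minus the PTC mean, and 5 arrays a group limit its precision.

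A RAB protein is active when it holds GTP. Exchange factors (GEFs) load the GTP, GTPase-activating proteins (GAPs) end the active state, and a prenyl anchor with the escort and GDI proteins lets the protein cycle between cytosol and membrane. Active RABs recruit effectors such as tethers and myosin motors. Thyroid follicular cells depend on this traffic, since they secrete thyroglobulin through their apical face into the follicle, take it back through endosomes and digest it in lysosomes to release hormone.

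Some arrays stood apart, PTC tumour 5 in the RAB values and ATC tumours 5 and 2 in measures over the whole array. In PTC tumour 5, 9 RAB genes lay far below the other 4 PTC tumours and 1 far above, by Dixon's criterion for 5 values. These 9 are 15.3% of the RAB genes, while 1.72% of all genes were that far below in this tumour. Without PTC tumour 5, 12 RAB genes passed as higher and 7 as lower, with Rab3d lost and Rab44 gained. ATC tumour 5 had the widest distribution of intensities and the lowest array weight (0.375), and ATC tumour 2 lay nearest to the PTC arrays on the first principal component. With both left out, which was decided on after seeing the data, 10 RAB genes were higher and 6 lower, against 12 and 7 with all arrays. Braf differed by −0.081 (adjusted p = 0.632), and the level of the deleted gene is not analysed here. Of 12 measured thyroid follicular markers 4 were lower and 0 higher in ATC, and their mean was 6.84 to 8.32 in ATC and 8.02 to 9.09 in PTC. Tg, thyroglobulin, was at 6.84 to 12.001 in ATC and 11.28 to 12.88 in PTC (difference −2.76, adjusted p = 0.0583), and Iyd, an iodide-recycling enzyme, differed by −2.33 (adjusted p = 0.0299).

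Of the 59 RAB genes, 12 were higher in ATC (20.3%), 7 were lower (11.9%) and 40 did not pass (limma, with a Benjamini-Hochberg adjusted p under 0.05 over all 19938 genes as the threshold). In either direction 32.2% of the RAB genes passed, against 21.2% of all genes. Over all genes, 11.5% were higher and 9.72% were lower, so the share of falling members was near the background and that of rising members was above it. The median difference was 0.058 over the RAB genes and −0.018 over all genes. For 10 members the lowest ATC tumour exceeded the highest PTC tumour, which held for 9.13% of all genes. For 7 members it was the reverse, as for 7.74% of all genes. A size of 1 log2 unit was reached by 1 of the 12 rises and 3 of the 7 falls, and over all genes by 361 of 2297 rises (1.81% of all genes) and 489 of 1937 falls (2.45% of all genes).

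**Figure D1:**
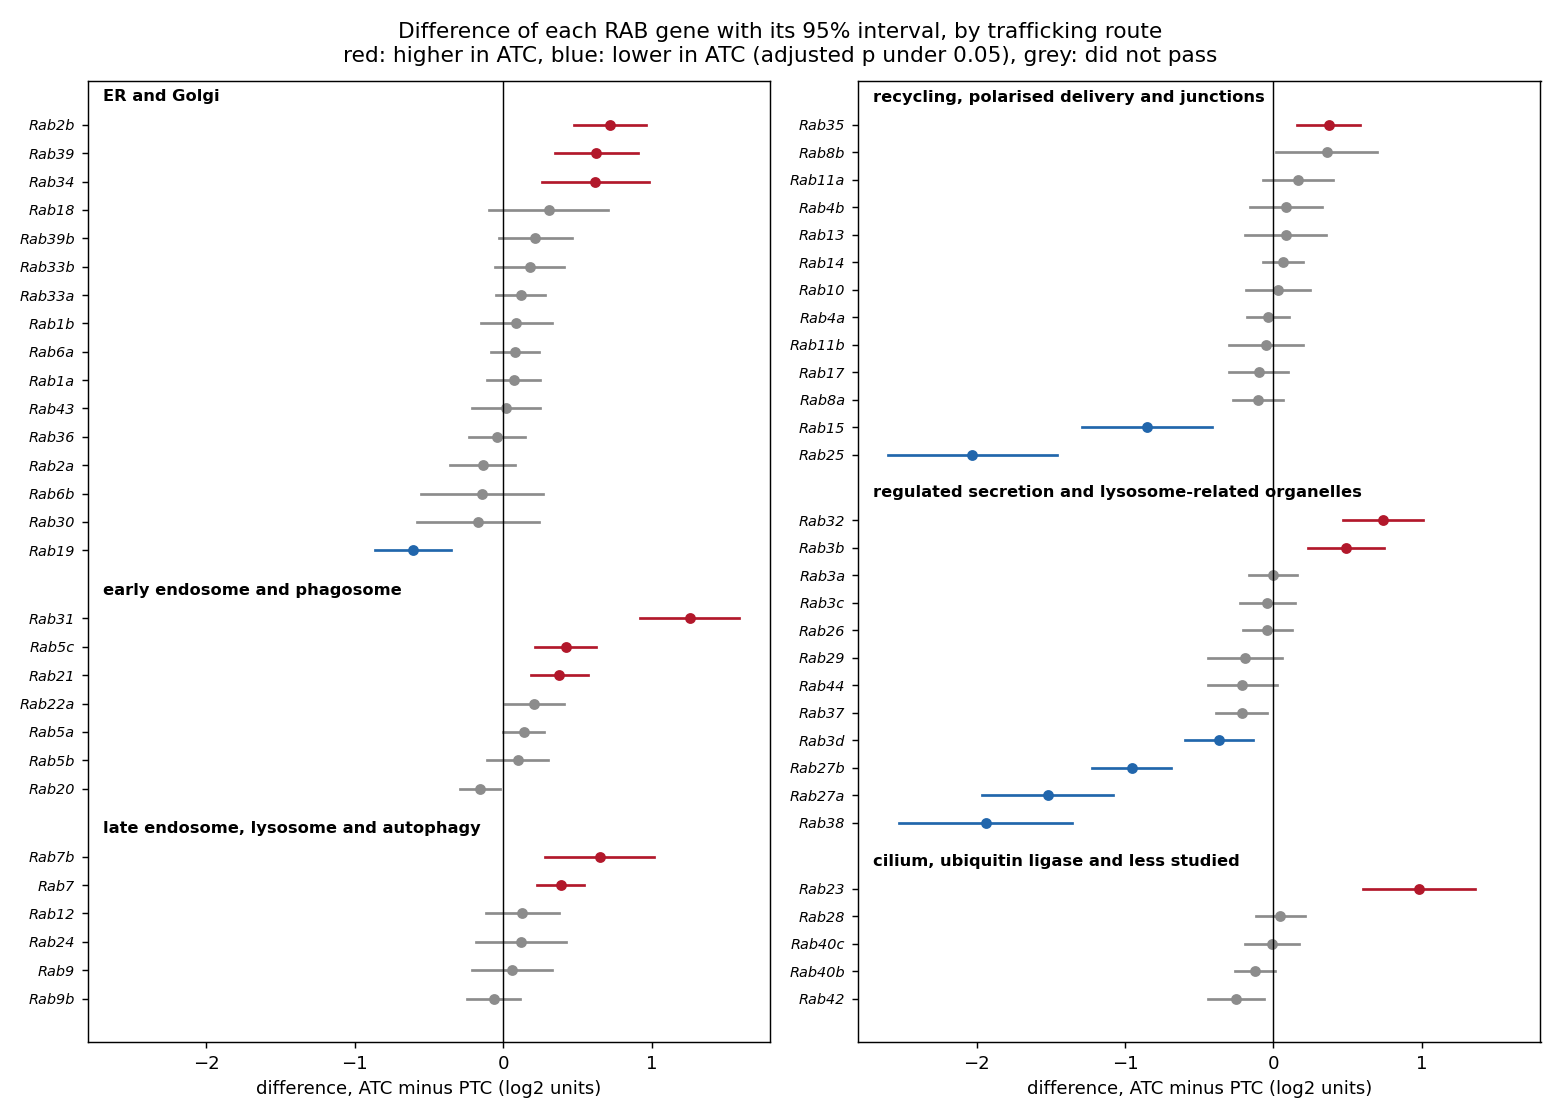
Difference of each of the 59 RAB genes, ATC minus PTC in log2 units on the horizontal axis, with its 95% interval from the limma fit, grouped by trafficking route. Red genes passed as higher and blue genes as lower in ATC, and grey genes did not pass. The falls of Rab25 (−2.03), Rab38 (−1.94) and Rab27a (−1.52) and the rise of Rab31 (1.26) lie farthest from 0, and most Golgi and recycling members lie close to it.

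The sharpest falls were those of RABs that serve apical recycling and regulated secretion. Rab25 is the epithelial member of the Rab11 subfamily and acts in apical recycling endosomes. It had 6.68, 8.23, 6.78, 7.67 and 7.56 in ATC tumours 1 to 5, against 9.40, 9.30, 9.18, 9.66 and 9.53 in PTC tumours 1 to 5. The groups did not overlap, and ATC tumours 1 and 3 were lowest while ATC tumour 2 kept the highest value of its group. Rab25 was 4.08-fold lower in ATC (difference −2.03, 95% interval −2.60 to −1.46, adjusted p = 0.000432). Its close relatives Rab11a and Rab11b, which drive recycling in most cell types, differed by 0.16 (95% interval −0.071 to 0.40) and −0.052 (95% interval −0.30 to 0.20) and did not pass. Rab11a had 10.74, 10.37, 10.67, 10.49 and 10.45 in ATC tumours 1 to 5, against 10.47, 10.51, 10.41, 10.48 and 10.04 in PTC tumours 1 to 5. Rab11b had 9.85, 10.05, 9.93, 9.97 and 10.43 in ATC tumours 1 to 5, against 10.18, 9.97, 9.97, 10.06 and 10.31 in PTC tumours 1 to 5. For both relatives the groups overlapped. A dimmer second probe set of Rab11b, with a mean of 8.05 over the 10 arrays, differed by 0.19 and did not pass. The log2 ratio of Rab25 to Rab11a within an array was −4.06 to −2.14 in ATC and −1.23 to −0.51 in PTC.

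Rab38 acts in the biogenesis of melanosomes and other lysosome-related organelles, among them the lamellar bodies of lung cells. Its values were 7.16, 8.29, 6.75, 7.83 and 7.98 in ATC tumours 1 to 5, against 9.15, 9.75, 9.83, 9.63 and 9.34 in PTC tumours 1 to 5. No ATC tumour reached a PTC tumour, and ATC tumours 1 and 3 were again the lowest. It was 3.83-fold lower in ATC (difference −1.94, 95% interval −2.52 to −1.36, adjusted p = 0.000631).

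Rab32, the nearest relative of Rab38 and its partner in melanosome formation, moved the other way. Rab32 stood at 9.30, 9.75, 9.29, 9.41 and 9.34 in ATC tumours 1 to 5, against 8.75, 8.86, 8.72, 8.78 and 8.29 in PTC tumours 1 to 5. Every ATC tumour was higher than every PTC tumour, with ATC tumour 2 highest and PTC tumour 5 lowest. The rise was 1.67-fold (difference 0.74, 95% interval 0.47 to 1.01, adjusted p = 0.0017). Within each array the log2 ratio of Rab38 to Rab32 was −2.54 to −1.36 in ATC and 0.40 to 1.11 in PTC. These ratios could not overlap, since both genes were already separate between the groups, in opposite directions. Of 6 melanocyte markers 0 rose and 1 fell, and their mean was 6.48 to 6.71 in ATC and 6.63 to 6.69 in PTC. The 2 largest differences among them were those of Mitf (0.47, adjusted p = 0.0582) and Mlana (−0.36, adjusted p = 0.0187).

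The Rab27 pair, which docks secretory granules, lysosome-related organelles and exosome-forming endosomes at the plasma membrane, fell together. Rab27a measured 6.50, 7.60, 6.61, 7.21 and 7.28 in ATC tumours 1 to 5, against 8.41, 8.63, 8.92, 8.42 and 8.42 in PTC tumours 1 to 5. The ATC tumours were all lower, in the same order at the extremes as for Rab25, with ATC tumour 1 lowest and ATC tumour 2 highest. Rab27a fell 2.87-fold (difference −1.52, 95% interval −1.96 to −1.08, adjusted p = 0.000536).

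Rab27b, its paralog of secretory cells, had 7.46, 7.81, 7.71, 7.61 and 7.11 in ATC tumours 1 to 5, against 8.58, 8.36, 8.62, 8.42 and 8.49 in PTC tumours 1 to 5. The ATC values were again all lower, here with ATC tumour 5 lowest. Rab27b fell 1.94-fold (difference −0.95, 95% interval −1.22 to −0.69, adjusted p = 0.000421). The log2 ratio of Rab27a to Rab27b overlapped between the groups, at −1.10 to 0.17 in ATC and −0.17 to 0.30 in PTC.

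Rab15 acts in early and recycling endosomes and was first known from neurons. It reached 6.38, 7.15, 7.44, 7.28 and 6.58 in ATC tumours 1 to 5, against 8.18, 7.69, 7.56, 7.89 and 7.76 in PTC tumours 1 to 5. The groups were separate by a small margin, with ATC tumour 3 just below PTC tumour 3. The difference was −0.85 (95% interval −1.29 to −0.41, adjusted p = 0.0111), a 1.8-fold fall.

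Rab19, a Golgi-associated member that is little studied in mammals, had 7.77, 7.78, 7.32, 7.501 and 7.63 in ATC tumours 1 to 5, against 7.93, 8.26, 8.32, 8.09 and 8.43 in PTC tumours 1 to 5. ATC tumours 1 and 2 came closest to the PTC tumours without reaching them. Rab19 fell by 0.61 on the log2 scale (95% interval −0.86 to −0.35, adjusted p = 0.00393). Rab43, a Golgi relative, had 7.80, 7.72, 7.72, 7.64 and 8.07 in ATC tumours 1 to 5, against 7.78, 7.62, 7.80, 7.62 and 8.04 in PTC tumours 1 to 5. These groups overlapped, and its difference of 0.019 did not pass.

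Rab3d, which sits on the granules of exocrine cells, was the weakest of the 7 falls. Its level was 6.74 ± 0.19 in ATC and 7.11 ± 0.15 in PTC (SD, n = 5 each), and ATC tumour 4 overlapped the PTC range. The difference was −0.36 (95% interval −0.59 to −0.14, adjusted p = 0.0277). The call ended without ATC tumour 1 or 3 or PTC tumour 1, 3, 4 or 5, without ATC tumours 2 and 5 together, with the replicate number as a block and with the parathyroid hormone level Pth as a covariate (adjusted p up to 0.0869). The difference was −0.42 to −0.29 over all of the settings tried.

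**Figure D2:**
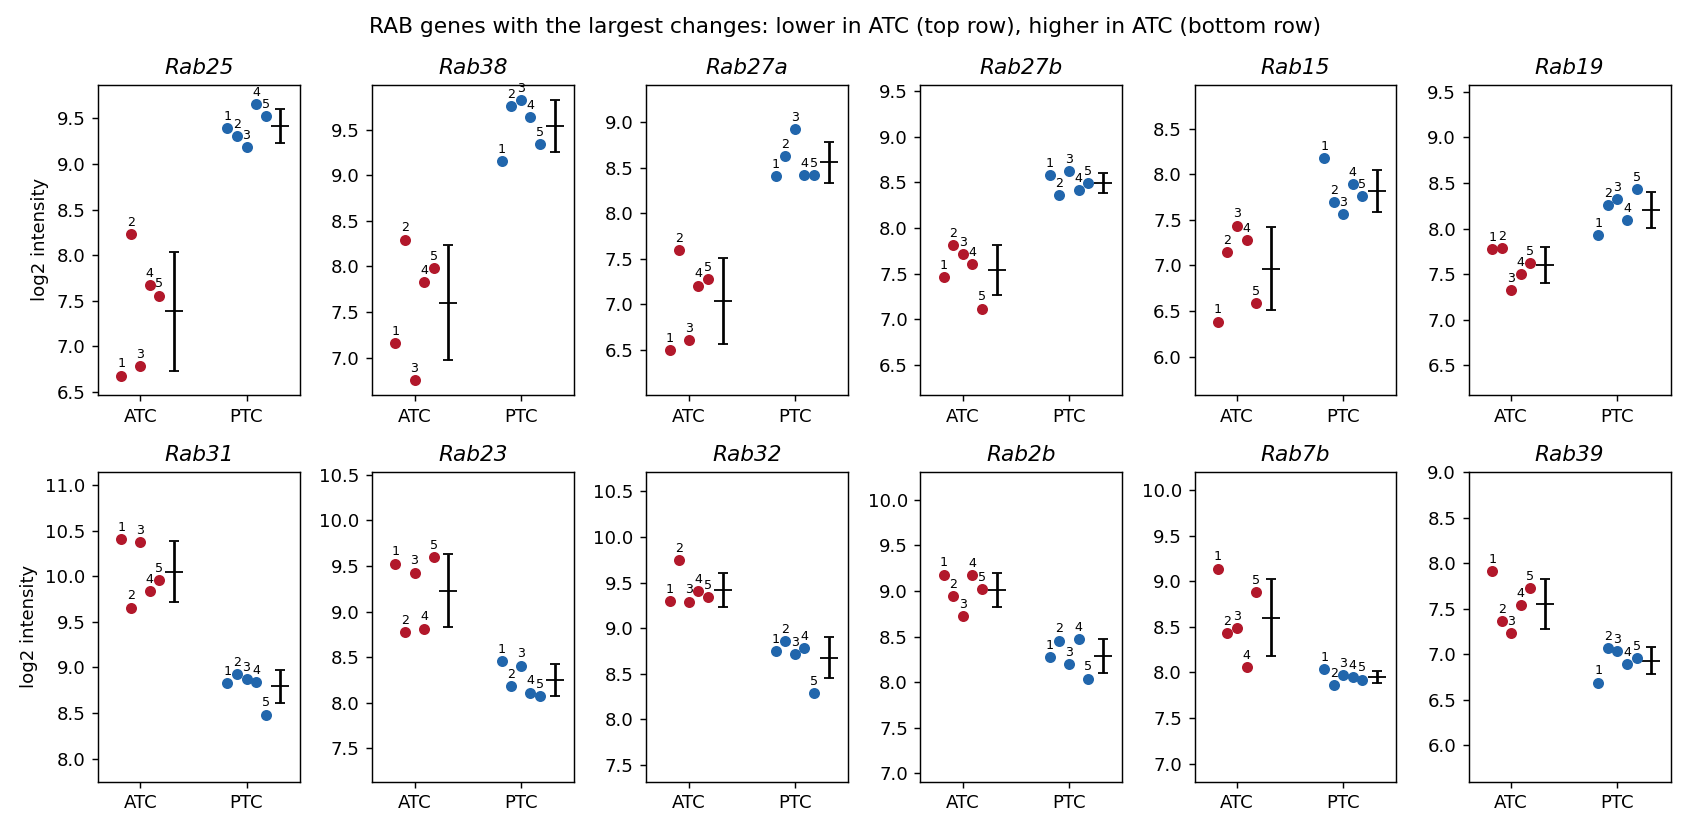
Log2 intensity in each tumour (points, numbered by replicate) of the 6 RAB genes with the largest falls in ATC (top row) and the 6 with the largest rises (bottom row), among those that passed and whose groups did not overlap. Red is ATC, blue is PTC, bars give mean ± SD (n = 5), and every panel spans the same number of log2 units. For Rab25, Rab38 and Rab27a the ATC tumours 1 and 3 sit lowest and tumour 2 highest, while the PTC tumours lie close together.

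Epithelial markers were lower in the same tumours. Of 16 epithelial markers 13 were lower and 0 higher in ATC, and their mean was 7.39 to 8.65 in ATC and 9.39 to 9.55 in PTC. The largest differences were those of the keratins Krt7 (−3.14, adjusted p = 0.0035) and Krt19 (−2.92, adjusted p = 0.00085), whereas the keratins Krt8 (−0.30, adjusted p = 0.19) and Krt18 (−0.21, adjusted p = 0.583) did not pass. Krt18 was 11.68 and 12.06 in ATC tumours 1 and 3, against 11.51 to 11.76 in PTC, so these keratins did not follow the order of the list mean. Across the ATC tumours the mean was lowest in tumours 1 and 3 (7.39 and 7.53) and highest in tumour 2 (8.65), as for Rab25, Rab38 and Rab27a. Of the 7 falling RAB genes, 5 had their highest ATC value in tumour 2, and 4 had their lowest in tumour 1. The part of a lower share of epithelial cells in these differences was not tested, and in whole tumours fewer cells of a type and less RNA per cell cannot be told apart. Rab17, another RAB known from polarised epithelia, differed by −0.099 (95% interval −0.30 to 0.10, adjusted p = 0.503), with 6.75 to 7.23 in ATC and 6.98 to 7.15 in PTC.

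**Figure D3:**
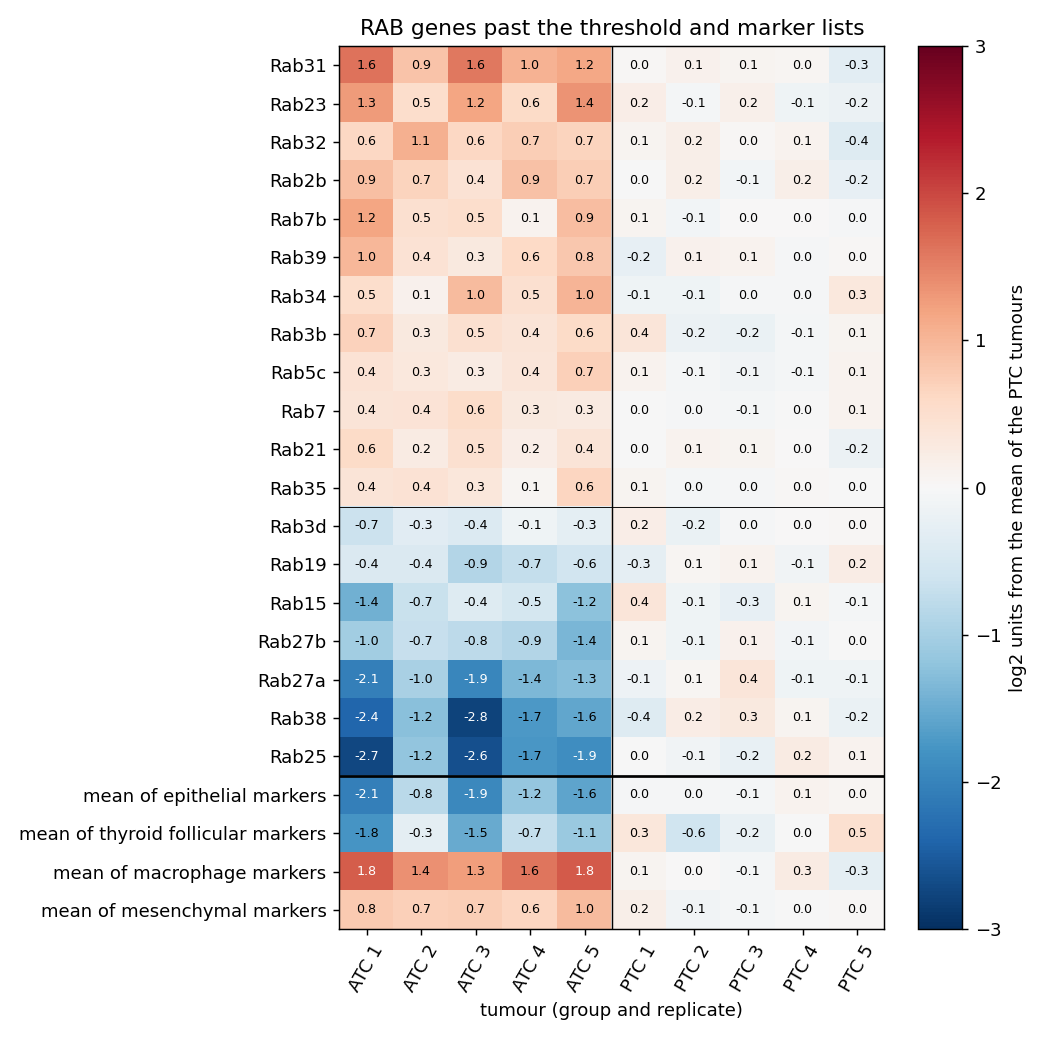
The 19 RAB genes that passed (rows above the thick line) and the means of 4 marker lists (rows below it) in each tumour (columns), as log2 units from the mean of the PTC tumours. Red is higher and blue is lower. Rab25, Rab38 and Rab27a are palest in ATC tumour 2 and darkest in ATC tumours 1 and 3, and the epithelial marker mean follows the same order at its extremes.

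The window before the transcription start is shown for 3 members: Rab25 and Rab27a as falling members, to show the E-box CAGGTG, a sequence that the repressors Zeb1 and Zeb2 are known to bind, and Rab31 as the leading rise. Zeb1 and Zeb2, singled out after their values were seen, differed by 0.70 (adjusted p = 0.00153) and 0.998 (adjusted p = 0.000591). They belong to the list of 11 mesenchymal markers, of which 7 rose, while Snai2 of the same list (0.017) did not pass. Windows and factors were both picked with the results known, and a link between them was not tested. Sequences are those of RefSeq on build GRCm38.p6, the 250 bases upstream of the start, in lower case with each CAGGTG or its reverse complement CACCTG in capitals. The Rab25 window lies at chr3:88548280-88548529, minus strand, that of Rab27a at chr9:73044560-73044809, plus strand, and that of Rab31 at chr17:65772753-65773002, minus strand.
Rab25: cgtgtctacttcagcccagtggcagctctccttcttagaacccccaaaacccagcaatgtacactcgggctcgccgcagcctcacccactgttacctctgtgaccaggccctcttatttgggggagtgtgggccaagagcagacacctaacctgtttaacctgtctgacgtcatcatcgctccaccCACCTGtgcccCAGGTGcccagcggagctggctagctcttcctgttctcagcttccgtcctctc
Rab27a: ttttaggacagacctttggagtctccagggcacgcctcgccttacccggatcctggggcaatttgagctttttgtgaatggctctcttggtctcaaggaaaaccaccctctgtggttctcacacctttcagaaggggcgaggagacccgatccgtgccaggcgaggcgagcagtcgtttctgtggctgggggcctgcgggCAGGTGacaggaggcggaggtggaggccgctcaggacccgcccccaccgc
Rab31: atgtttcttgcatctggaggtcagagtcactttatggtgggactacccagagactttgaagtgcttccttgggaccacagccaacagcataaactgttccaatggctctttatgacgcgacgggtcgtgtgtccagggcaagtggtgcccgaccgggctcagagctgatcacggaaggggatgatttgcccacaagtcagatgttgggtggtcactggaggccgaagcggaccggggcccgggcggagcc

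The Rab25 window holds the E-box 2 times, beginning 64 and 53 bases before the start, the Rab27a window 1 time, 50 bases before it, and the Rab31 window 0 times. A further window of Rab27a at another start holds 0. Over both strands, 4 of the 5 falling members with a window held CAGGTG in at least 1 of their windows (Rab15, Rab19, Rab25 and Rab27a), as did 2 of 11 rising members (Rab23 and Rab5c) and 3 of 32 that did not pass. The falling Rab38 and Rab27b had no window and could not be examined. Rab15 counts through 1 of its 4 windows. The rising Rab23 counts through 1 window that holds the E-box 2 times, as often as that of Rab25, and a further window of Rab23 holds 0. Over all RAB genes with a window, 9 of 48 (18.8%) held it, against 19.4% of all 27025 genes with such windows, so the RAB share did not exceed the background. Among 10 motifs counted in this way with the results known, GGGCGG, the GC box, was in 36 of 48 RAB genes (75%) against 35.4% of all genes, and CACGTG was in 5 (10.4%) against 6.86%. The 27025 genes were not limited to the 19938 of the arrays and were not matched to the RAB genes by type or level. TGACGTCA was in 2 RAB genes (4.17%) against 1.77% of all genes, TGACGTGT in 0 against 0.426%, TGANTCA in 2 (4.17%) against 7.82%, CCGGAAGT in 2 (4.17%) against 3.23%, and AACCNGGTT in 0 against 0.278%. The loose motifs CAAGNG and CANTT were in 50% and 81.2% of RAB genes, against 43.9% and 82.7% of all genes. CAAGNG was in 5 of the 5 falling members, 4 of 11 rising members and 15 of 32 that did not pass. Other motifs were more frequent among rising members. GGGCGG was in 3 of 5 falling and 10 of 11 rising members, and in 23 of 32 that did not pass. CANTT was in 3 of 5, 9 of 11 and 27 of 32. These matches describe letters in a window, and binding was not measured.

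In the early endosome and phagosome route 3 of 7 members rose and 0 fell, with a median of 0.21, where 11.5% of all genes rose and 9.72% fell. A count over so few members was not tested as a group. Rab31, also called Rab22b, moves cargo between the trans-Golgi network and endosomes and is found on phagosomes. It had 10.41, 9.65, 10.38, 9.84 and 9.96 in ATC tumours 1 to 5, against 8.83, 8.93, 8.88, 8.84 and 8.48 in PTC tumours 1 to 5. The groups were far apart, with ATC tumours 1 and 3 highest, the same 2 tumours in which Rab25 was lowest. Rab31 rose 2.39-fold (difference 1.26, 95% interval 0.92 to 1.59, adjusted p = 0.000332). Its relative Rab22a had 8.86, 8.74, 8.93, 8.58 and 9.06 in ATC tumours 1 to 5, against 8.74, 8.57, 8.59, 8.61 and 8.604 in PTC tumours 1 to 5. The groups overlapped. Rab22a differed by 0.21 and did not pass (adjusted p = 0.131), and it passed without ATC tumour 4 (difference 0.27, adjusted p = 0.0351).

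Of the 3 Rab5 genes, which govern fusion of early endosomes, 1 passed. Rab5c was at 10.16 ± 0.18 in ATC and 9.74 ± 0.10 in PTC (SD, n = 5 each), with every ATC tumour above every PTC tumour (difference 0.42, adjusted p = 0.00855). Rab5a lay at 9.19 to 9.39 in ATC and 9.06 to 9.18 in PTC, also without overlap, but the difference of 0.14 did not pass (adjusted p = 0.147). Rab5b differed by 0.097, and its second probe set by 0.10. Rab21, which carries integrins through early endosomes, was at 10.79 ± 0.16 in ATC and 10.41 ± 0.11 in PTC (SD, n = 5 each) and rose by 0.38 (adjusted p = 0.0104). Rab20, a phagosomal RAB known to respond to hypoxia, lay at 7.55 to 7.74 in ATC and 7.77 to 7.88 in PTC, lower in every ATC tumour, but its difference of −0.16 did not pass (adjusted p = 0.0972).

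In the late endosome, lysosome and autophagy route 2 of 6 members rose and 0 fell, with a median of 0.13. For comparison, 11.5% of all genes rose and 9.72% fell. Rab7 is the master RAB of late endosomes and lysosomes and controls their fusion. It measured 11.82, 11.84, 11.99, 11.74 and 11.71 in ATC tumours 1 to 5, against 11.41, 11.40, 11.37, 11.43 and 11.55 in PTC tumours 1 to 5. The increase was small but larger than the spread, at 1.31-fold (difference 0.39, 95% interval 0.23 to 0.54, adjusted p = 0.00314), and no values overlapped.

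Rab7b, which returns cargo from late endosomes to the trans-Golgi network and is known from monocytes and macrophages, had 9.14, 8.43, 8.48, 8.06 and 8.88 in ATC tumours 1 to 5, against 8.04, 7.86, 7.97, 7.95 and 7.92 in PTC tumours 1 to 5. ATC tumours 1 and 5 were well above the others, and ATC tumour 4 lay just above PTC tumour 1. The difference was 0.65 (95% interval 0.28 to 1.02, adjusted p = 0.0177). The call ended with Pth as a covariate and with ATC tumours 2 and 5 left out, where the adjusted p was at most 0.0597. Rab12 and Rab24, linked to autophagy, and Rab9 and Rab9b, of transport from late endosomes to the Golgi, differed by 0.13, 0.12, 0.058 and −0.065 and did not pass.

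Markers of macrophages, cells rich in phagosomes and lysosomes, rose with these members. Of 14 macrophage markers 12 were higher in ATC and 0 lower, and their mean was 10.999 to 11.59 in ATC and 9.46 to 9.99 in PTC. The receptors Vsig4 (4.98, adjusted p = 3.32e-05) and Cd163 (3.47, adjusted p = 0.000141) had the largest differences. Within ATC the macrophage mean was highest in tumours 5 and 1 (11.59 and 11.55), the tumours with the highest Rab7b, and lowest in tumour 3 (10.999), where Rab31 was the second highest. ATC tumour 4 had the lowest Rab7b of the ATC tumours (8.06), but its macrophage mean (11.34) was above those of ATC tumours 2 and 3. Of 11 mesenchymal markers 7 rose and 0 fell, and their mean was 10.38 to 10.70 in ATC and 9.65 to 9.92 in PTC, led by Cdh2 (3.12, adjusted p = 1.25e-05) and Prrx1 (1.52, adjusted p = 0.000374). Snai2 (0.017) and the matrix genes Sparc (−0.071), Col1a1 (−0.20) and Col3a1 (−0.30) did not pass. Whether more macrophages or mesenchymal cells carried the rise of Rab31, Rab7b or Rab32 was not tested.

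Along the secretory pathway from the endoplasmic reticulum through the Golgi, most RABs differed little. Of 16 members 3 rose, 1 fell (Rab19, above) and 12 did not pass, with a median of 0.083. Over all genes 11.5% rose and 9.72% fell. Rab2b, which works in traffic between the endoplasmic reticulum and the Golgi, had 9.18, 8.95, 8.72, 9.17 and 9.02 in ATC tumours 1 to 5, against 8.27, 8.46, 8.20, 8.47 and 8.04 in PTC tumours 1 to 5. All ATC tumours exceeded all PTC tumours. The rise was 1.65-fold (difference 0.72, 95% interval 0.48 to 0.97, adjusted p = 0.00117). Its paralog Rab2a had 11.63, 11.50, 11.24, 11.32 and 11.20 in ATC tumours 1 to 5, against 11.61, 11.52, 11.62, 11.55 and 11.29 in PTC tumours 1 to 5. The groups overlapped. Rab2a differed by −0.14 (95% interval −0.36 to 0.080), and the log2 ratio of Rab2b to Rab2a did not overlap, at −2.55 to −2.15 in ATC and −3.42 to −3.06 in PTC.

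Rab39, which has been placed on the Golgi and on phagosomes of macrophages, had 7.92, 7.37, 7.23, 7.54 and 7.73 in ATC tumours 1 to 5, against 6.69, 7.07, 7.03, 6.89 and 6.96 in PTC tumours 1 to 5. The lowest ATC tumour, tumour 3, lay above the highest PTC tumour. The difference was 0.63 (95% interval 0.35 to 0.91, adjusted p = 0.00526), and that of its paralog Rab39b was 0.22 (adjusted p = 0.204). Rab39b had 6.57, 6.70, 6.55, 6.73 and 7.13 in ATC tumours 1 to 5, against 6.59, 6.31, 6.60, 6.52 and 6.57 in PTC tumours 1 to 5. ATC tumour 5 was the highest for Rab39b, and the groups overlapped.

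Rab34, known for positioning lysosomes near the Golgi and for building primary cilia, was at 8.17 ± 0.37 in ATC and 7.55 ± 0.19 in PTC (SD, n = 5 each). ATC tumour 2 overlapped PTC tumour 5, and the difference was 0.62 (95% interval 0.26 to 0.98, adjusted p = 0.0195). With Pth as a covariate it was 0.40 and still passed (adjusted p = 0.0365). The core members of this route stayed close to 0: Rab1a and Rab1b, needed for transport out of the endoplasmic reticulum, differed by 0.07 and 0.089, and Rab6a, the Golgi RAB, by 0.077. The 95% intervals of these 3 differences lay within −0.15 to 0.33. The largest difference that did not pass was that of Rab18, a RAB of the endoplasmic reticulum and lipid droplets (0.31, adjusted p = 0.286), which was 0.11 without PTC tumour 5. Rab33b, Rab33a, Rab43, Rab36, Rab6b and Rab30 differed by −0.17 to 0.18.

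Among RABs of recycling and polarised delivery, most differences were small beside that of Rab25. Apart from the falls of Rab25 and Rab15, 1 of its 13 members rose and 10 did not pass, with a median of 0.033. Among all genes, 11.5% rose and 9.72% fell. Rab35, which acts in fast recycling and cytokinesis, was at 7.41 ± 0.21 in ATC and 7.04 ± 0.053 in PTC (SD, n = 5 each) and rose by 0.37 (95% interval 0.16 to 0.58, adjusted p = 0.0183), with ATC tumour 4 inside the PTC range. Without ATC tumours 2 and 5 this call ended (adjusted p = 0.0685). Rab8b, of exocytic carriers, differed by 0.36 (adjusted p = 0.131) and passed with Pth as a covariate (adjusted p = 0.0296). Rab8a, Rab10, Rab13 and Rab14, which deliver vesicles to the cell surface and to junctions, differed by −0.10, 0.033, 0.082 and 0.066, and Rab4a and Rab4b, of rapid recycling, by −0.035 and 0.085.

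In the regulated secretion route 4 of 12 members fell (Rab27a, Rab27b, Rab38 and Rab3d) and 2 rose, with a median of −0.20, where 9.72% of all genes fell and 11.5% rose. The call of Rab3d was lost in 9 of 21 other settings, listed above. Besides Rab32, the rise was that of Rab3b, a secretory vesicle RAB of endocrine and epithelial cells. It was at 7.05 ± 0.16 in ATC and 6.56 ± 0.23 in PTC (SD, n = 5 each), with a difference of 0.49 (95% interval 0.23 to 0.75, adjusted p = 0.0116), and PTC tumour 1 lay inside the ATC range. Rab3a and Rab3c, of synaptic vesicles, and Rab26, of exocrine granules, differed by −0.0031, −0.04 and −0.042. Rab37, found on mast cell granules, differed by −0.21 (adjusted p = 0.0772) and passed without ATC tumour 5 (adjusted p = 0.034) and with array weights. Rab44, known from mast cell degranulation, and Rab29, of the trans-Golgi network and stressed lysosomes, differed by −0.21 and −0.19. Of 7 mast cell markers 3 rose and 0 fell, with Cpa3 (1.96, adjusted p = 0.0397) and Fcer1a (0.93, adjusted p = 0.0108) the largest, and their part in the RAB values was not tested.

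Rab23 led the remaining members. It is a negative regulator of Hedgehog signalling that works at the primary cilium, and it had 9.53, 8.78, 9.43, 8.81 and 9.60 in ATC tumours 1 to 5, against 8.45, 8.19, 8.41, 8.11 and 8.07 in PTC tumours 1 to 5. Every ATC tumour was above every PTC tumour, but ATC tumours 2 and 4 were clearly lower than the other three. Rab23 rose 1.98-fold (difference 0.98, 95% interval 0.60 to 1.36, adjusted p = 0.00237). Rab28, a RAB of photoreceptor cilia, and Rab40b and Rab40c, which join ubiquitin ligases, differed by 0.048, −0.12 and −0.0085. Rab42 differed by −0.25 (adjusted p = 0.0594) and passed without ATC tumour 3 (adjusted p = 0.0314).

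The spread between tumours differed among members. Of the 59 RAB genes 38 had the larger SD in ATC (64.4%), against 68.6% of all genes. The SD within ATC was 0.65 for Rab25 and 0.63 for Rab38, and 0.049 for Rab10 and 0.053 for Rab14. In PTC the SD of Rab25 was 0.19, and Rab6b and Rab18 varied more there, with SDs of 0.47 and 0.44. Rab6b stood at 7.30, 7.29, 7.38, 7.34 and 7.503 in ATC tumours 1 to 5, against 7.75, 6.72, 7.45, 7.71 and 7.91 in PTC tumours 1 to 5. PTC tumour 2 was far below the other PTC tumours, and without it Rab6b passed as lower in ATC.

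**Figure D4:**
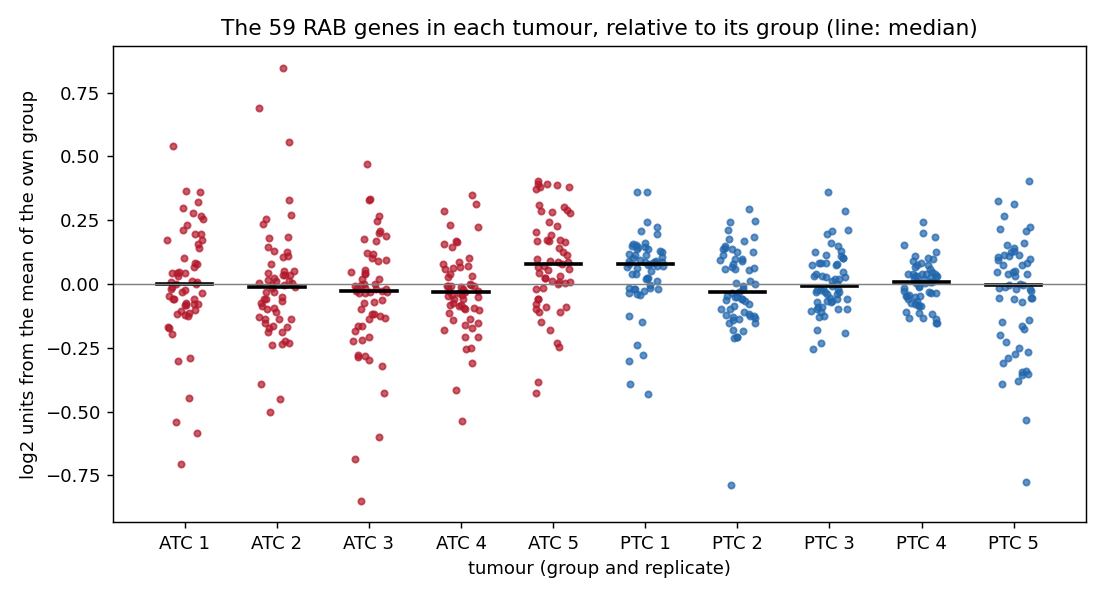
Each point is 1 of the 59 RAB genes in 1 tumour, plotted as log2 units from the mean of its own group, with ATC tumours in red, PTC tumours in blue and the median of the 59 as a black line. The medians run from −0.033 in ATC tumour 4 to 0.078 in ATC tumour 5, and PTC tumour 5 has more low points than the other PTC tumours, among them Rab18 at 7.92 log2 intensity.

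The genes that act on RABs moved both ways. Of 130 partner genes listed, 124 were measured, and 16 were higher (12.9%), 18 lower (14.5%) and 90 did not pass, against 11.5% and 9.72% of all genes. The median difference of the partners was 0.031. The count of higher partners was 9 without PTC tumour 3 and 9 with Pth as a covariate. In the membrane cycle list 1 of 7 members passed: Chml, an escort protein that presents RABs for prenylation, was at 8.46 ± 0.28 in ATC and 7.96 ± 0.19 in PTC (SD, n = 5 each) (difference 0.50, adjusted p = 0.0227), a call that ended without PTC tumour 1 or 3, with Pth as a covariate and with the replicate block (adjusted p up to 0.0855).

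Among 38 exchange factors 7 rose (18.4%) and 4 fell (10.5%), against 11.5% and 9.72% of all genes. In this list 2 relatives of the DENND2 group went in opposite directions. Dennd2d had 6.60, 6.89, 6.31, 6.89 and 6.82 in ATC tumours 1 to 5, against 7.87, 8.20, 8.23, 8.12 and 7.96 in PTC tumours 1 to 5. Its values were lower in every ATC tumour, and it was 2.59-fold lower (−1.37, 95% interval −1.64 to −1.11, adjusted p = 7.5e-05). Dennd2a had 7.84, 7.89, 7.78, 7.68 and 9.36 in ATC tumours 1 to 5, against 6.98, 6.62, 6.77, 6.66 and 6.98 in PTC tumours 1 to 5. The rise was 1.31 (95% interval 0.70 to 1.92, adjusted p = 0.00646), with ATC tumour 5 far above the other ATC tumours, and it was 0.997 without that tumour. Rab3il1, an exchange factor for Rab8 and Rab3 proteins, rose by 0.63 (adjusted p = 0.0129), and Dennd5a, a Rab6-binding protein that acts on Rab39, by 0.59 (adjusted p = 0.00956). The Rab3il1 call ended with ATC tumours 2 and 5 left out (adjusted p = 0.0505).

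Of 34 GTPase-activating proteins 4 rose (11.8%) and 6 fell (17.6%), against 11.5% and 9.72% of all genes. Tbc1d8b fell by 0.92 on the log2 scale (SE 0.15, adjusted p = 0.00158), and its paralog Tbc1d8 fell by 0.71 (SE 0.11, adjusted p = 0.000957). Tbc1d13, which acts on Rab35, rose by 0.39 (SE 0.092, adjusted p = 0.0119). Evi5, a regulator of Rab11, rose by 0.36 (SE 0.096, adjusted p = 0.0194), and its call ended with the replicate block.

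Of 45 effectors 4 rose (8.89%) and 8 fell (17.8%), against 11.5% and 9.72% of all genes. The class V myosins, motors that RABs recruit, moved in different directions. Myo5c, the class V myosin of secretory epithelia, had 6.76, 8.18, 7.79, 7.60 and 8.65 in ATC tumours 1 to 5, against 9.79, 9.40, 9.61, 9.98 and 9.52 in PTC tumours 1 to 5. It was 3.64-fold lower in ATC (−1.86, 95% interval −2.48 to −1.24, adjusted p = 0.00106), with no overlap. Myo5b, the motor of Rab11 and Rab25 recycling endosomes, had 6.97, 8.27, 7.45, 7.88 and 7.93 in ATC tumours 1 to 5, against 8.86, 8.64, 8.68, 9.19 and 9.21 in PTC tumours 1 to 5. It was lower in every ATC tumour, by 2.33-fold (−1.22, adjusted p = 0.00281). Myo5a, which carries melanosomes with Rab27a and serves many cell types, had 10.64, 10.05, 10.12, 10.29 and 10.87 in ATC tumours 1 to 5, against 9.12, 9.49, 9.19, 9.02 and 8.91 in PTC tumours 1 to 5. It was higher in every ATC tumour, by 2.37-fold (1.25, 95% interval 0.88 to 1.61, adjusted p = 0.000523).

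Among the other effectors that passed, those named here except Sytl5 were picked after their values were seen. Exph5, which binds Rab27 proteins, was at 5.87 ± 0.34 in ATC and 6.92 ± 0.22 in PTC (SD, n = 5 each) and fell by 1.06 (adjusted p = 0.00102), and Mlph, which links Rab27a to myosin Va, was at 7.83 ± 0.22 in ATC and 8.64 ± 0.19 in PTC (SD, n = 5 each) and fell by 0.81 (adjusted p = 0.000936). Of other listed genes known to bind Rab27 proteins, Sytl1, Sytl2, Sytl3, Sytl4, Myrip, Unc13d, Rph3a and Rph3al did not pass. Sytl5, also a Rab27 binder, had 8.83, 9.16, 6.96, 8.40 and 8.87 in ATC tumours 1 to 5, against 9.69, 9.36, 9.77, 9.40 and 9.97 in PTC tumours 1 to 5. ATC tumour 3 lay far below the rest, and the difference of −1.19 (adjusted p = 0.0302) lost its call without ATC tumour 4 or PTC tumour 1, 3 or 5 and with Pth as a covariate (adjusted p up to 0.1002). It was −0.82 without ATC tumour 3, where it passed (adjusted p = 0.00649).

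Of the 5 Rab11 family interacting proteins, which also bind Rab25, 2 fell and 1 rose. Rab11fip1, known as the Rab coupling protein, was at 8.32 ± 0.42 in ATC and 9.14 ± 0.10 in PTC (SD, n = 5 each) (difference −0.82, adjusted p = 0.00613). Rab11fip2, which joins Rab11 to myosin Vb, differed by −0.50 (adjusted p = 0.019), a call that ended without PTC tumour 3 (adjusted p = 0.0507) and with Pth as a covariate (adjusted p = 0.0734). Rab11fip5 differed by 0.31 (adjusted p = 0.0298) and lost its call in 6 of 10 fits with 1 tumour left out, with Pth as a covariate and with ATC tumours 2 and 5 left out (adjusted p up to 0.122). Osbpl1a, the cholesterol-sensing effector of Rab7 on late endosomes, was at 8.66 ± 0.25 in ATC and 7.89 ± 0.20 in PTC (SD, n = 5 each) and rose by 0.77 (adjusted p = 0.00186), without overlap.

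**Figure D5:**
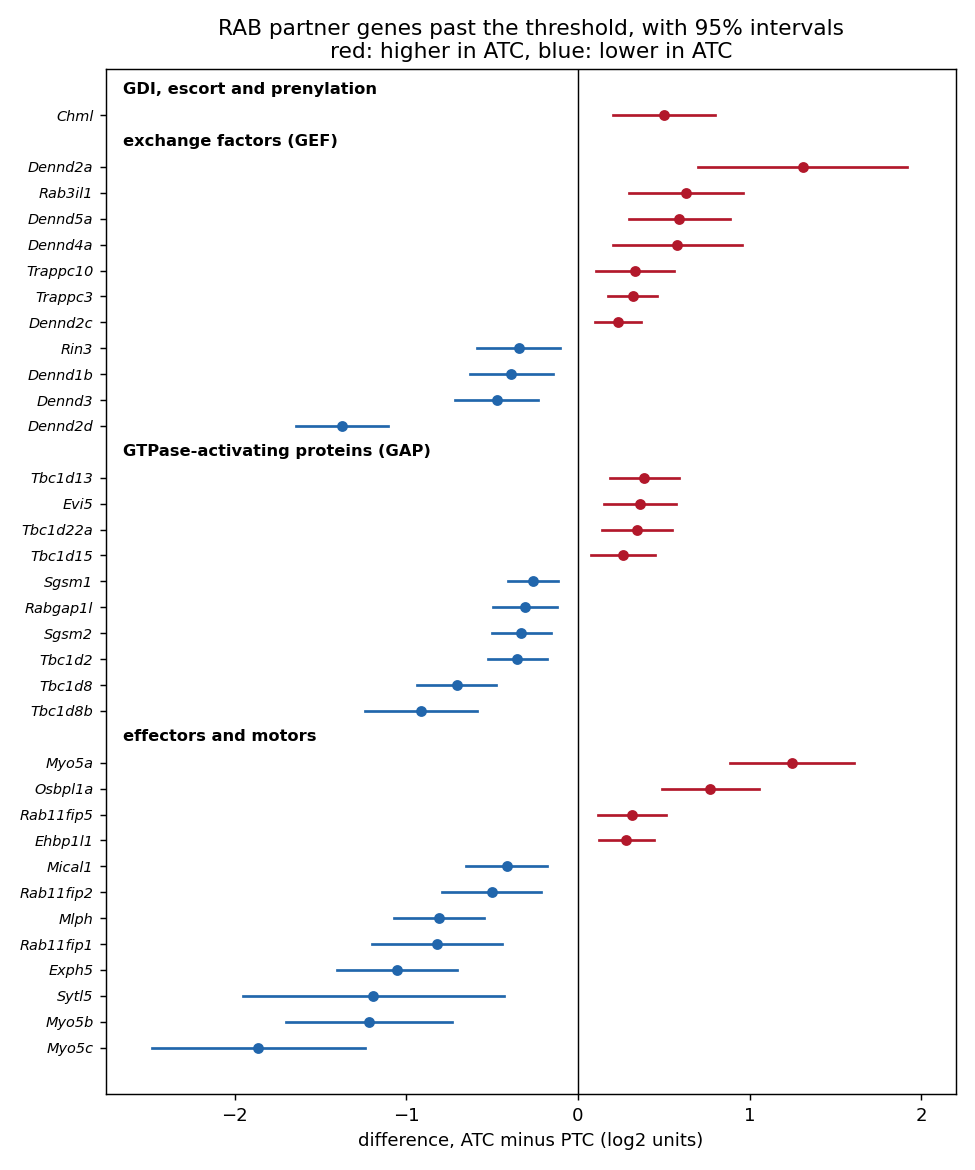
Difference, ATC minus PTC in log2 units, with the 95% interval, for the 34 RAB partner genes that passed, by class. Red genes were higher in ATC and blue genes lower. The effectors Myo5c (−1.86), Myo5b (−1.22), Sytl5 (−1.19) and Exph5 (−1.06) lie lowest in their class, and Myo5a (1.25) lies highest.

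Markers of other cells that a tumour piece can hold were measured beside the RAB genes. Of the lists not yet given, 3 of 6 T cell markers, 1 of 4 B cell markers, 1 of 3 C cell markers and 2 of 7 endothelial markers were lower in ATC and 0 were higher. Over all genes, the background for every marker list given here, 9.72% were lower and 11.5% higher. No marker list was tested as a group. Among 7 neutrophil, 3 parathyroid, 9 skeletal muscle and 5 adipocyte markers 0 passed in either direction (limma, with 2, 0, 0 and 0 at an unadjusted p under 0.05). By list, the 2 largest differences were those of Cd2 (−1.57) and Cd3g (−1.34) for T cells, Cd79b (−0.78) and Ms4a1 (−0.54) for B cells, and Ret (−0.82) and Chgb (−0.077) for C cells. They were Tek (−0.67) and Kdr (−0.67) for endothelium, S100a9 (−1.35) and Cxcr2 (−1.29) for neutrophils, Pth (−2.83) and Chga (−1.32) for parathyroid, Myh4 (−1.05) and Myh1 (−0.54) for muscle, and Adipoq (−0.42) and Lep (−0.15) for fat. Of these genes Cd2, Cd3g, Cd79b, Ret and Tek passed. Pth ranged from 4.73 to 11.97 in ATC and from 4.38 to 12.66 in PTC.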

How the data were processed

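The authors deposited 1 table of 35556 probe sets by 10 arrays, in which every value is present. Its range (2.79 to 14.15) and array medians (7.25 to 7.34) are those of normalized log2 intensities, and the deposited values were taken as such, since neither scale nor normalization is given in the sources used here. They are not centred by gene. Affymetrix Power Tools and limma are listed, with no version, per the submitters' processing notes. Probe sets took names from the platform annotation (21789 with 1 symbol, 1621 with several, 12146 with none here), and the probe set with the highest mean stood for each of 19938 genes. ATC minus PTC was fitted with limma 3.58.1 (R 4.3.3) by lmFit and eBayes, all 10 arrays, no covariate or filter, with Benjamini-Hochberg adjustment over all genes, threshold 0.05 and 95% intervals. The procedure was tested on simulated data.

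The members, routes and lists were chosen with earlier results of these data known. By rule, all values were given for the 6 largest rises and falls that passed without overlap. Every other RAB gene that passed was named, with the largest difference that did not pass in each route and up to 4 of the largest that passed in each partner list. The rule's paralogs by protein identity were replaced by known subfamily relatives, as no protein sequences were used here. The 2 largest differences of each marker list were also named. All 59 RAB genes matched RefSeq (GRCm38.p6), and 48 had promoter windows. Alternatives were a replicate block, probe set rules, 2 filters, 2 rescalings, variance and weight options, 2 covariates and each array left out. Leaving out ATC replicates 2 and 5 was added after seeing the data. Python 3.11.15, pandas 2.3.3, numpy 2.4.6 and matplotlib 3.10.9 drew the figures.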

Additional observations from a re-analysis of the deposited data

Results flagged for a closer look

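Of 118 groups of 5 RAB values, 17 held a tumour far from the others by Dixon's criterion (critical ratio 0.71), or 14.4%, where chance gives about 1 in 20. Over all genes 7.36% of such groups did. Of these 17 values 13 were in PTC and 4 in ATC, and 10 were in PTC tumour 5. In that tumour Rab10 (10.91 against 11.34 to 11.43 in the other PTC tumours), Rab11a (10.04 against 10.41 to 10.51), Rab18 (7.92 against 8.82 to 8.99), Rab1a (11.90 against 12.19 to 12.29) and Rab28 (8.17 against 8.34 to 8.38) were low. So were Rab30 (7.05 against 7.35 to 7.46), Rab31 (8.48 against 8.83 to 8.93), Rab32 (8.29 against 8.72 to 8.86) and Rab9 (9.33 against 9.697 to 9.83), whereas Rab34 was high (7.87 against 7.42 to 7.52). PTC tumour 5 also had the lowest Pth of all tumours (4.38), and 1.72% of all genes were low and 2.37% high there by the same criterion. Its means of macrophage markers (9.46) and neutrophil markers (6.42) were the lowest of all tumours, and that of thyroid follicular markers (9.09) was the highest. The cause was not tested. Rab31 and Rab32 remained higher in ATC without that tumour.

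In the other PTC tumours, Rab22a (8.74) and Rab9b (7.49) were high in tumour 1, and Rab39b (6.31) was low in tumour 2. Among ATC tumours, Rab12 was high in tumour 1 (10.08), Rab32 in tumour 2 (9.75), Rab3c in tumour 4 (5.28) and Rab1b in tumour 5 (8.79).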

How the results depend on the processing

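The 22 other settings left the RAB counts at 9 to 13 higher and 5 to 8 lower, against 12 and 7. Leaving out 1 tumour at a time gave 12 to 13 higher and 6 to 8 lower RAB genes, 9 to 16 higher and 13 to 18 lower partner genes, and 1762 to 2287 higher and 1491 to 1877 lower genes of all. Leaving out genes below the median of mean intensity removed 19 RAB genes, and then 9 and 5 RAB genes passed since Rab35, Rab39, Rab3b, Rab15 and Rab3d were not tested. With Pth as a covariate 9 partner genes were higher instead of 16, and the cause was not tested. With the replicate block, 12 RAB genes were higher and 6 lower, and 12 partner genes higher and 16 lower, with 2063 and 1699 of all genes. The numbers pair nothing in the labels, and same-numbered tumours correlated at −0.086 to 0.12 in their deviations from the group means. Of 46 genes followed across the settings, 33 kept their side of the threshold in every setting in which they were tested, and 0 changed sign. The 46 hold every RAB gene that passed but not most of those that did not. Outside them, Rab6b passed without PTC tumour 2 and Rab44 without PTC tumour 5, and signs were not followed. No background signal was used here, so no detection limit is given for dim genes such as Rab33a, Rab3c and the partner Exph5.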

Other observations

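Some RAB genes lie near each other in the genome without having moved together. In the gene order of GRCm38.p6, Rab7b and Rab29 lie on chromosome 1 with 3 coding genes between them, and they differed by 0.65 (passed) and −0.19 (did not pass). Rab43 and Rab7 lie on chromosome 6 with 6 coding genes between them and differed by 0.019 (did not pass) and 0.39 (passed). Rab31 and Rab12 lie on chromosome 17 with 8 coding genes between them and differed by 1.26 (passed) and 0.13 (did not pass). The difference within each of these pairs was not tested.

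For 3 RAB genes a second probe set carried the same symbol. The second probe set of Rab11b differed by 0.19 where the one used differed by −0.052, that of Rab2a by −0.13 beside −0.14, and that of Rab5b by 0.10 beside 0.097, and none of the 6 passed.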
